A study of Homo sapiens with 24 samples.

Results

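Neurotrophins and the ligands of the GDNF family are secreted growth factors on which developing sensory neurons depend for survival, axon growth and identity. NTF3 encodes neurotrophin-3, whose main receptor is the tyrosine kinase encoded by NTRK3, and BDNF encodes brain-derived neurotrophic factor, whose main receptor is encoded by NTRK2. NGFR encodes the low-affinity p75 receptor, which binds every neurotrophin. GDNF and ARTN (artemin) signal through the RET tyrosine kinase, which they reach through co-receptors anchored in the membrane. GFRA1 encodes the one preferred by GDNF. In sensory ganglia these receptors mark different classes of neurons, and ligands are mostly made by target tissue, glia and other cells around the neurons.

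The 9 genes described here, 4 ligands (NTF3, BDNF, GDNF, ARTN) and 5 receptors or co-receptors (NTRK2, NTRK3, NGFR, RET, GFRA1), were taken by symbol from the 36468 entries of the count table. Each had 1 entry and passed the filter on low counts. RNA-seq of polyadenylated RNA was done on 24 cultures of sensory neurons derived from H9WA09, an established line of human pluripotent stem cells with a wild-type genotype, in 6 differentiation batches with 1 library per treatment and batch. Cells spent 12 days becoming vagal neural crest cells, 4 days as spheroids, 6 days in differentiation and 2 to 3 weeks in maturation. Cultures then received TGF-β at 2 ng/ml, IL-4 at 10 ng/ml with IL-13 at 3 ng/ml, or the albumin solution used as vehicle for 5 days. The fourth group received IL-6, for which the labels give neither dose nor duration. All libraries come from 1 cell line, so the batches are repeated differentiations and not separate donors. Whole cultures were harvested, and fewer cells of a type and less RNA per cell cannot be told apart in such libraries.

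Libraries held 33342682 to 39817784 counts. Values below are normalized read counts (counts divided by DESeq2 size factors over the 24 libraries) or log2 levels, which are log2(normalized count + 1). Means of 10 neuron markers lay between 11.97 and 14.37 on the log2 level scale, and means of 11 sensory neuron markers between 8.73 and 10.88. Markers of mesenchyme, the connective tissue lineage, were also high, with a mean over 10 genes of 10.80 to 12.79. The vehicle libraries of batches 2 and 4 stood apart. Over 20962 genes, the vehicle library of batch 2 correlated on average at 0.035 with the other libraries of its batch and at 0.427 with those of batch 4, and the vehicle library of batch 4 at 0.152 with its own batch and at 0.402 with batch 2. Differences of the 9 genes from vehicle are therefore also given without both libraries.

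NTF3, on the plus strand of chromosome 12 (5430332 to 5495299, GRCh38.p14), was the only one of the 9 genes to be called in any of the 4 comparisons, and it rose under IL-4 + IL-13. The RefSeq promoter entries used here give a pair of its start sites, both downstream of the annotated gene start at 5430332. The 250 bases before each of the pair are shown because NTF3 carries the only call. Matches to CAGAC, the short binding sequence of SMAD proteins, are in capitals. The bases before the annotated gene start were not searched.

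NTF3 upstream of the first start, chr12:5431858-5432107, plus strand: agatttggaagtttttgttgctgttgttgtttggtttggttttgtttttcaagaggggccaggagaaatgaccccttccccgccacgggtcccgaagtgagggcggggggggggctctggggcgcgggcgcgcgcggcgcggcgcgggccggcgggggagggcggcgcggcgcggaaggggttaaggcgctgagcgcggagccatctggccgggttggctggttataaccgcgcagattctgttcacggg

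NTF3 upstream of the second start, chr12:5493882-5494131, plus strand: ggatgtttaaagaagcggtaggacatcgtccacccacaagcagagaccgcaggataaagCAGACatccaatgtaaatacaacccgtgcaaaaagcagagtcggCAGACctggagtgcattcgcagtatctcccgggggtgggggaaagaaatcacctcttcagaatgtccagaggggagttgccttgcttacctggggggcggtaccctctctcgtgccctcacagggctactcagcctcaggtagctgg

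The first window had a GC content of 66.4% and no match to any of the motifs searched. The second had a GC content of 55.2% and 2 matches to CAGAC, at 191 and 147 bases before the start. Both strands were searched. CAGAC was found in 38.0% of 35116 RefSeq windows of the same length, so a match is common. The half-sites of STAT proteins, TTC followed by GAA, were searched with 4 bases between them, the spacing preferred by STAT6, and with 3, that of other STAT proteins. Neither NTF3 window held them at either spacing, which 5.38% and 6.57% of all windows do. Among the 8 genes with an entry, with 23 windows in all, 1 of 5 windows of BDNF held the pair 4 bases apart and another held it 3 bases apart.

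In vehicle cultures NTF3 had a low count, with a lowest, median and highest normalized read count of 23.7, 47.9 and 106.0. The corresponding values were 38.5, 67.0 and 108.1 with TGF-β, 67.4, 88.2 and 229.7 with IL-4 + IL-13, and 20.4, 45.3 and 98.7 with IL-6. Batch 1 was highest in every group, and the groups overlapped when batches were pooled. In batch 3, the lowest vehicle library, NTF3 went from 23.7 with vehicle to 67.4 with IL-4 + IL-13, and in batch 1, the highest, from 106.0 to 229.7. The IL-4 + IL-13 library had the highest normalized NTF3 count of its batch in 6 of 6 batches, although in batch 2 the TGF-β library was close, at 85.8 against 87.2.

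**Figure D1:**
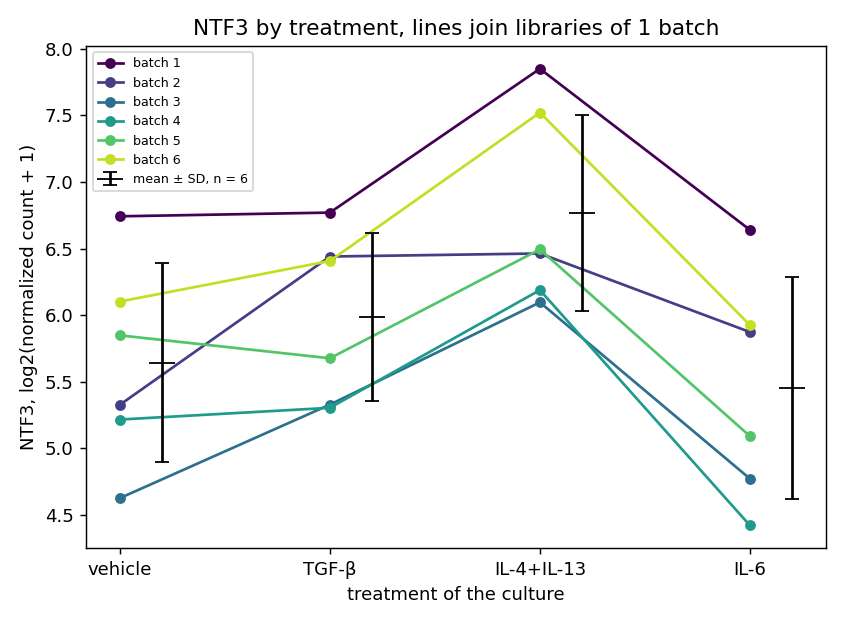
NTF3 log2 level, log2(normalized count + 1), for each treatment, with lines joining the 4 libraries of a batch and black bars for the mean ± SD of 6 libraries. Every line peaks at IL-4 + IL-13, where levels run from 6.10 to 7.85, while batches differ in their starting level from 4.63 to 6.74.

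NTF3 was higher with IL-4 + IL-13 than with vehicle by 1.14 on the log2 scale (standard error 0.19), or 2.2-fold, with an adjusted p = 0.0182 in edgeR's quasi-likelihood test. The within-batch log2 ratios were 1.11, 1.14, 1.47, 0.97, 0.65 and 1.42 in batches 1 to 6. This was 1 of 9 genes called higher, against 0.171% of all 28701 genes tested called higher by the same rule. The rule asks for an adjusted p below 0.05 together with a log2 fold change above 1 in size. The paper lists NTF3 among its differentially expressed genes under IL-4 + IL-13. Since the 9 genes were chosen with earlier results of these data known, the 2 shares are no test of the list. A rise in 6 of 6 batches was found for 2.35% of all genes. Without the vehicle libraries of batches 2 and 4 the difference was 1.09 (adjusted p = 0.0395, edgeR). The size changed little when a batch was left out, between 1.07 and 1.24, but the call was lost without batch 1 (adjusted p = 0.0937), batch 3 (0.138), batch 5 (0.05, just above the threshold) or batch 6 (0.148), and also with only these 2 groups in the fit (0.0895). DESeq2 gave 1.13 with an adjusted p of 1.47e-06, the lowest of all alternatives, and the highest was 1, in edgeR without batch as a term. NTF3 has no overlapping gene in the annotation.

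Cell type markers were read in the same comparison. All 6 markers of cycling cells had a positive log2 fold change with IL-4 + IL-13 (median 1.01), and none was called. Their summed normalized count ran from 653 to 4708 with vehicle and from 1427 to 17021 with IL-4 + IL-13. The upper end came from batch 2, where the vehicle library held 2286, and in the other 5 batches the IL-4 + IL-13 sums reached at most 5038. In batch 4 the order was the opposite, at 1884 with IL-4 + IL-13 against 4708 with vehicle. All 10 markers of mesenchyme had a negative one, with a median of -0.23, none called, and summed counts of 117180 to 383615 with vehicle against 97032 to 234842. Of 10 markers of Schwann cells or satellite glia, 2 had a positive log2 fold change, and the median was -0.28. These marker medians and sums include the vehicle libraries of batches 2 and 4, which stood apart. The part of these cell types in the NTF3 result was not tested.

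With TGF-β, NTF3 was higher than with vehicle by 0.35 (standard error 0.19, adjusted p = 0.907, edgeR), in 5 of 6 batches. Batch 2 gave the largest ratio, 1.11, and its vehicle library is one of those that stood apart. With IL-6 the difference was -0.20 (standard error 0.18, adjusted p = 0.87, edgeR), with a lower value in 4 of 6 batches. These NTF3 differences were 0.29 and -0.24 without the vehicle libraries of batches 2 and 4. Compared directly, the NTF3 log2 fold change of TGF-β over IL-4 + IL-13 was -0.78 (standard error 0.19), lower under TGF-β in 6 of 6 batches, with an adjusted p = 0.0504 in edgeR. In this comparison 5.45% of all genes were lower in 6 of 6 batches. Batch 2 contributed almost no difference, with a ratio of -0.02, and the other batches had ratios from -1.11 to -0.77. DESeq2 gave an adjusted p of 0.00129 for a difference of -0.79, which is under the fold threshold. Over all alternatives the adjusted p ran from 0.00129 to 1.

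BDNF, on the minus strand of chromosome 11 (27654893 to 27722030), was well expressed, with lowest, median and highest normalized read counts of 838.7, 1023.2 and 2688.8 in vehicle. They were 708.9, 834.5 and 1682.3 with TGF-β, 837.9, 1115.1 and 1660.0 with IL-4 + IL-13, and 714.5, 980.2 and 1368.2 with IL-6. The groups overlapped, and the highest value by far was the vehicle library of batch 2. The treated libraries of that batch held 714.5 to 837.9. BDNF differed from vehicle by -0.35, -0.10 and -0.39 on the log2 scale with TGF-β, then IL-4 + IL-13, then IL-6 (standard errors 0.26, 0.26 and 0.25), and none passed the test. Without the vehicle libraries of batches 2 and 4 the differences were -0.16, 0.10 and -0.13. The BDNF gene overlaps the antisense gene BDNF-AS, and since the strand setting of the counting is not given in the sources used here, reads of the pair cannot be told apart.

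GDNF, on the minus strand of chromosome 5 (37812677 to 37840041), was the least abundant of the 9 genes, with raw counts of 2 to 79 per library. Its normalized read counts ran from 10.2 over a median of 27.9 to 73.1 in vehicle, from 15.6 over 56.7 to 71.5 with TGF-β, from 1.9 over 29.1 to 85.9 with IL-4 + IL-13 and from 6.4 over 29.6 to 63.3 with IL-6. The spread between batches was wider than that between groups, with batch means of the log2 level from 3.38 in batch 1 to 6.16 in batch 3. GDNF differed from vehicle by 0.38, -0.34 and -0.43 with TGF-β, then IL-4 + IL-13, then IL-6 (standard errors 0.41, 0.42 and 0.37). Batch 2 weighed on all 3, since without its libraries the GDNF differences were 0.65, 0.11 and -0.05. Without only the vehicle libraries of batches 2 and 4 they were 0.57, -0.19 and -0.22. The direct difference between TGF-β and IL-4 + IL-13 was 0.72 (standard error 0.41, unadjusted p = 0.101, edgeR), not past the threshold and higher with TGF-β in 5 of 6 batches. The ratio was largest in batch 2, at 2.77, from 18.8 against 1.9 normalized counts. GDNF overlaps the antisense gene GDNF-AS1, so the limit on strand given for BDNF holds here too.

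ARTN, on the plus strand of chromosome 1 (43933801 to 43937240), was lower in all 3 treated groups than in vehicle in the fitted values, without passing the test in any. Its lowest, median and highest normalized read counts were 37.2, 57.7 and 76.2 in vehicle, 18.5, 40.1 and 70.2 with TGF-β, 23, 37.3 and 53.5 with IL-4 + IL-13, and 27.9, 47.8 and 70.5 with IL-6. All groups overlapped. With IL-4 + IL-13 the difference was -0.55 (standard error 0.22, adjusted p = 0.581, edgeR), and 5 of 6 batches were lower, the exception being batch 3 at 0.05. With TGF-β it was -0.45 (standard error 0.22, adjusted p = 0.855, edgeR), mostly from batches 4 and 6 with ratios of -1.20 and -1.13. With IL-6 it was -0.27 (standard error 0.21, adjusted p = 0.85, edgeR), lower in 5 of 6 batches. The ARTN differences without the vehicle libraries of batches 2 and 4 were -0.40 with IL-4 + IL-13, -0.31 with TGF-β and -0.21 with IL-6.

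**Figure D2:**
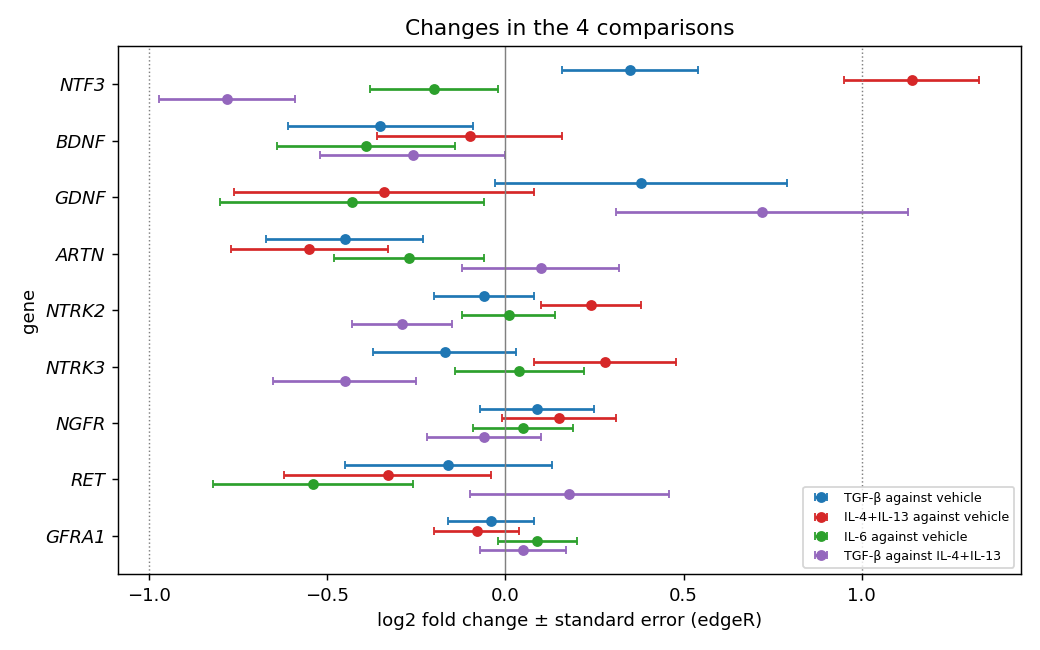
edgeR log2 fold changes (points) and standard errors (bars) of the 9 genes in the 4 comparisons, with dotted lines at the fold threshold of 1. NTF3 with IL-4 + IL-13, at 1.14, is the only point beyond a dotted line, and the other 35 points lie between -0.78 and 0.72.

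The receptor genes NTRK2 and NTRK3 encode the kinases for BDNF and neurotrophin-3. NTRK2, on the plus strand of chromosome 9 (84668522 to 85027054), had the highest counts of the 9 genes, with 8286.6, 11244.0 and 12880.3 as lowest, median and highest normalized read counts in vehicle. The values were 8201.5, 9812.1 and 15451.6 with TGF-β, 8221.0, 12944.1 and 15766.1 with IL-4 + IL-13, and 8060.2, 10901.0 and 16140.5 with IL-6. The lowest vehicle value came from batch 2, whose treated libraries held 15451.6 to 16140.5. The differences from vehicle were -0.06, 0.24 and 0.01 with TGF-β, then IL-4 + IL-13, then IL-6 (standard errors 0.14, 0.14 and 0.13). Without the vehicle libraries of batches 2 and 4 they were -0.21, 0.09 and -0.12. In the comparison that uses no vehicle library, the NTRK2 log2 fold change of TGF-β over IL-4 + IL-13 was -0.29, with a standard error of 0.14 and adjusted p = 0.487 in edgeR. The direction held in 6 of 6 batches, although the ratio in batch 6 rounded to 0. NTRK2 overlaps the long noncoding gene LOC124902193, with the same limit on reads.

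NTRK3, on the minus strand of chromosome 15 (87859751 to 88256739), had normalized read counts of 983.9, 2119.9 and 3786.9 (lowest, median, highest) in vehicle and of 1042.1, 1795.9 and 3015.6 with TGF-β. They were 2087.7, 2510.0 and 3361.2 with IL-4 + IL-13 and 1761.5, 2200.1 and 2587.8 with IL-6. The groups overlapped. The differences from vehicle were -0.17, 0.28 and 0.04 with TGF-β, then IL-4 + IL-13, then IL-6 (standard errors 0.20, 0.20 and 0.18), with adjusted p values of 1, 0.803 and 0.979 in edgeR. Without the vehicle libraries of batches 2 and 4, they were 0.04, 0.50 and 0.26, and the adjusted p with IL-4 + IL-13 was 0.232 (edgeR). Compared directly, NTRK3 had a log2 fold change of TGF-β over IL-4 + IL-13 of -0.45 (standard error 0.20, adjusted p = 0.43, edgeR) and was lower under TGF-β in 5 of 6 batches, with batch 2 at 0.05. NTRK3 overlaps NTRK3-AS1, a pseudogene and a microRNA gene, and the limit on strand applies.

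NGFR, on the plus strand of chromosome 17 (49495293 to 49515008), varied far more between batches than between treatments. Its normalized read counts were 289.6, 1849.8 and 3414.3 (lowest, median, highest) in vehicle, 224.0, 1636.1 and 3836.7 with TGF-β, 370.3, 1860.6 and 3616.0 with IL-4 + IL-13, and 384.4, 1676.9 and 3225.5 with IL-6. Of the sum of squares of its log2 level, 97.2% lay between batches and 0.143% between treatments. All 4 libraries of batch 1 held 224.0 to 406.6 and all 4 of batch 3 held 3039.8 to 3531.7. The differences from vehicle were 0.09, 0.15 and 0.05 (standard errors 0.16, 0.16 and 0.14), and none passed the test. They were 0.14, 0.21 and 0.12 without the vehicle libraries of batches 2 and 4. The antisense gene NGFR-AS1 and the microRNA gene MIR6165 overlap it.

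RET, on the plus strand of chromosome 10 (43077069 to 43130351), showed the same order of extremes, with batch 3 highest and batch 1 lowest. In vehicle its lowest, median and highest normalized read counts were 786.1, 4383.3 and 10124.3, with TGF-β 650.9, 3024.1 and 9833.9, with IL-4 + IL-13 583.6, 2530.9 and 9231.6, and with IL-6 571.2, 2364.8 and 8482.0. Batches held 91.1% of the sum of squares of its log2 level. The differences from vehicle were -0.16, -0.33 and -0.54 with TGF-β, then IL-4 + IL-13, then IL-6 (standard errors 0.29, 0.29 and 0.28). The smallest adjusted p was 0.85, with IL-6 (edgeR). In batch 2 the vehicle library held 6200.8 and the treated ones 1180.9 to 1763.9, while in batch 4 the vehicle library, at 5102.9, was below the treated ones at 6857.5 to 9401.9. Without both libraries the differences were 0.07, -0.08 and -0.23.

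GFRA1, on the minus strand of chromosome 10 (116056925 to 116274705), varied least between batches. Its lowest, median and highest normalized read counts were 1464.1, 1896.2 and 2797.5 in vehicle, 1638.4, 1843.3 and 2419.5 with TGF-β, 1398.8, 1751.5 and 2320.1 with IL-4 + IL-13, and 1785.8, 2015.1 and 2431.4 with IL-6. The differences from vehicle were -0.04, -0.08 and 0.09 (standard errors 0.12, 0.12 and 0.11), and 0.04, -0.01 and 0.19 without the vehicle libraries of batches 2 and 4. Its batch means of the log2 level spanned 0.62, the narrowest range of the 9 genes, against 3.87 for RET. In batch 1 the library treated with IL-4 + IL-13 was higher than vehicle by 0.66, while the other 5 batches were lower, by ratios of -0.30 to -0.18. The long noncoding gene LOC107984273 and the small nucleolar RNA gene SNORD158 overlap GFRA1, and their reads could not be set apart here.

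**Figure D3:**
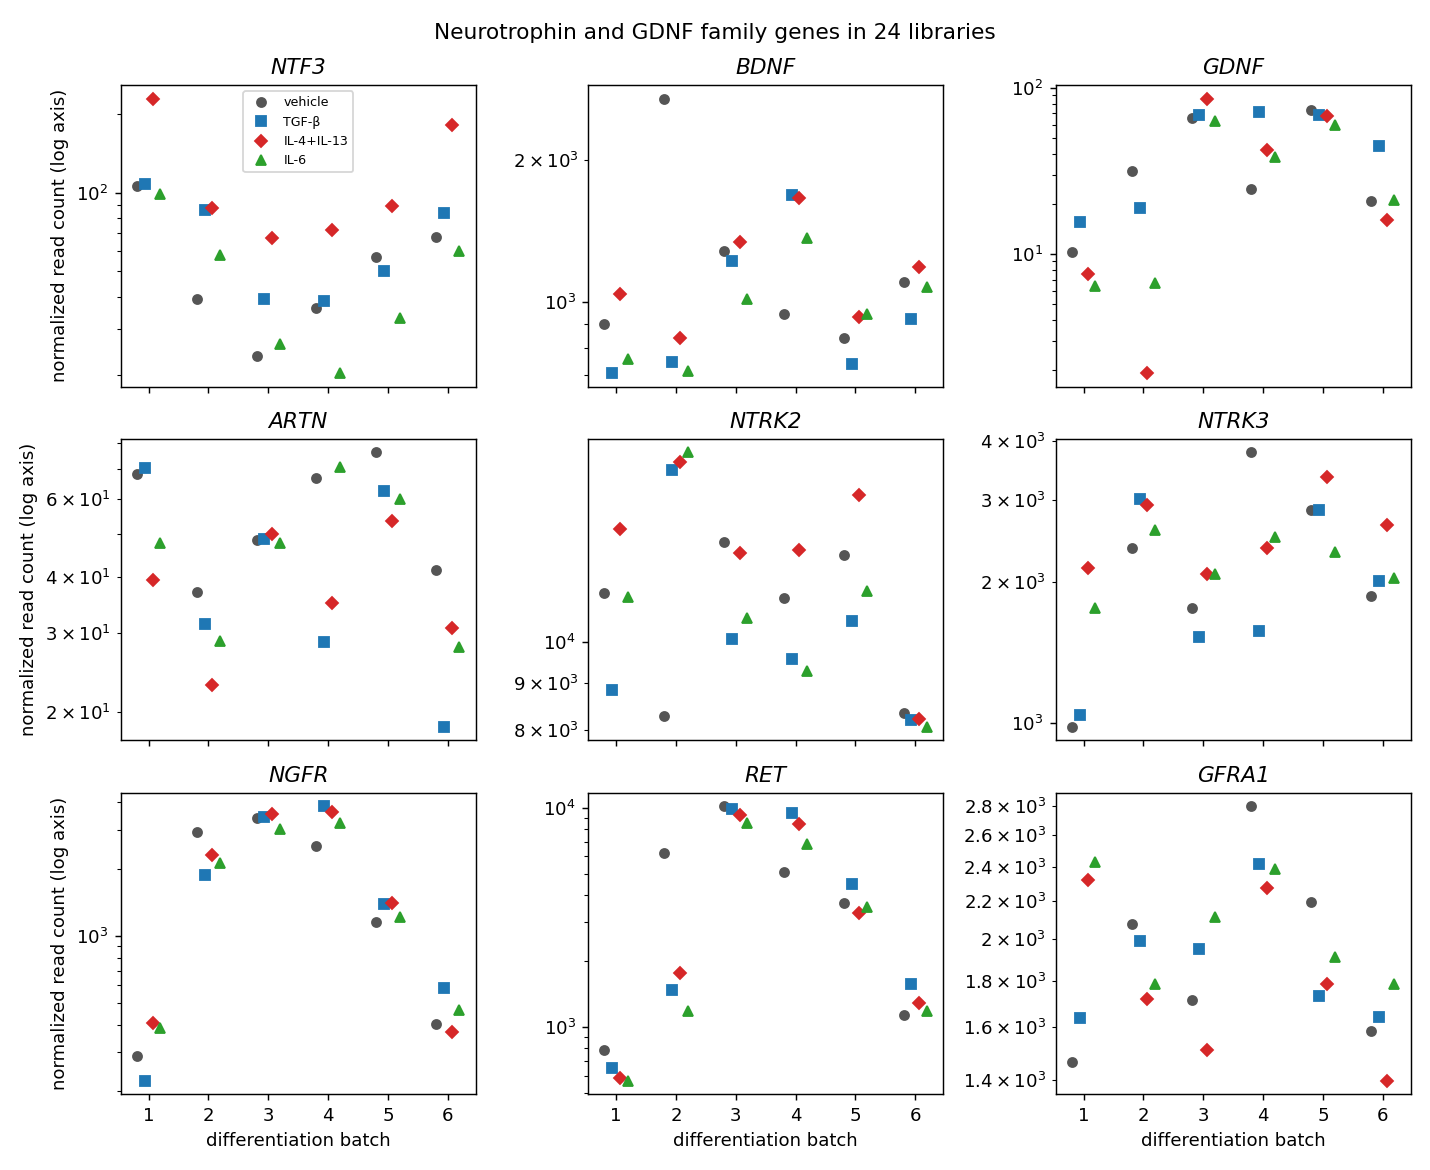
Normalized read count (log axis, scaled per gene) of each gene in the 24 libraries, by batch on the x axis and by treatment as marker. RET and NGFR separate by batch, NTF3 has the IL-4 + IL-13 marker on top in every batch, and in batch 2 the vehicle marker lies apart for BDNF, NTRK2 and RET.

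By comparison, edgeR called none of the 9 genes with TGF-β, where 0.0209% of all genes were called. DESeq2 also called none (0.408% of all genes), and none of the 9 had an unadjusted p under 0.05, which 6.08% of all genes had. With IL-4 + IL-13, edgeR and DESeq2 both called NTF3 alone, against 0.251% and 0.592% of all genes in either direction. NTF3 and ARTN had an unadjusted p under 0.05, as did 7.47% of all genes. With IL-6, edgeR called 0 of the 9 and 0 of all 29377 genes tested (0%). None of the 9 reached an unadjusted p under 0.05 there, against 1400 genes (4.77%) in all, and DESeq2 called 0 of the 9 and 0.429% of all genes. In the direct comparison 0 of 9 were called by edgeR and by DESeq2, against 0.895% and 1.55% of all genes. NTF3 and NTRK3 had an unadjusted p under 0.05 in it, as did 10.5% of all genes. The median log2 fold change of the 9 genes was -0.06, -0.08, -0.20 and -0.06 in the 4 comparisons (TGF-β, IL-4 + IL-13, IL-6, direct), beside 0, 0, -0.01 and 0 over all genes tested. The 3 comparisons with vehicle share the vehicle libraries.

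Batch held more of the variation than treatment for each of the 9 genes. With 6 batches and 4 treatments, batch is expected to hold the larger share even where neither has an effect. NTF3 had the largest share between treatments, 35.7%, with 57.1% between batches and 7.16% left over. Over 20962 genes the medians were 64.3% between batches, 5.73% between treatments and 27.3% left over. BDNF had the smallest share between batches, 31%, and 59.2% was left over, which includes its vehicle library of batch 2.

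**Figure D4:**
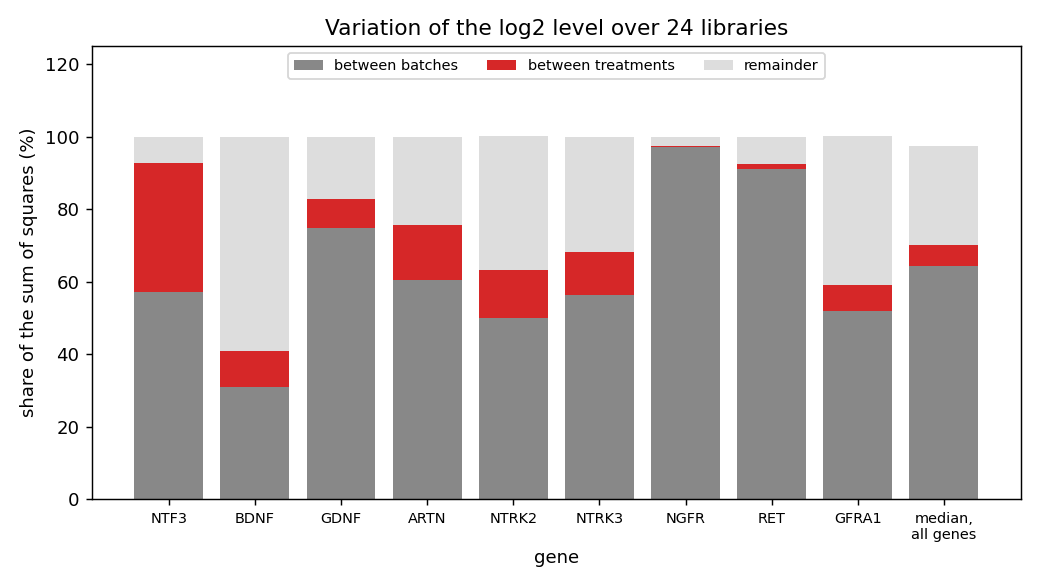
Shares of the sum of squares of the log2 level over 24 libraries, in percent, that lie between batches, between treatments and in the remainder, for each of the 9 genes. The last bar gives the 3 medians over 20962 genes, which need not add to 100. NGFR (97.2%) and RET (91.1%) are almost wholly between batches, and NTF3 has the largest treatment share (35.7%).

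RET, NGFR and GDNF had the widest batch ranges, 3.87, 3.40 and 2.78 on the log2 scale. Several marker lists moved with RET and NGFR but not in the same way with GDNF. The mean log2 level of the sensory neuron markers was 8.84, 10.17, 10.52, 10.58, 10.17 and 9.36 in batches 1 to 6, and that of the neuron markers 12.32, 13.74, 14.23, 14.06, 13.73 and 13.40. RET had batch means of 9.33, 11.03, 13.20, 12.83, 11.86 and 10.33, and NGFR of 8.31, 11.16, 11.71, 11.67, 10.34 and 8.81. RET, NGFR and both neuronal lists were thus lowest in batches 1 and 6. This was not particular to them. The markers of Schwann cells or satellite glia were lowest there too, at 4.87 and 5.38, against 5.77 to 6.62 in the others. Cholinergic neuron markers were at 8.12 and 8.09, against 9.41 to 9.87. Not every list did so, and the smooth muscle markers were highest there, at 9.24 and 9.36. GDNF had batch means of 3.38, 3.45, 6.16, 5.39, 6.09 and 4.63, and in batch 2 it was nearly as low as in batch 1 while both neuronal lists were higher there than in batches 1 and 6. The mean log2 level of the mesenchyme markers was also lowest in batches 1 and 6, at 11.16 and 11.01, against 11.62 to 12.28 in the others. Their summed normalized count did not follow that order, because the vehicle library of batch 1 had the highest sum of all vehicle libraries, 383615, and that of batch 6 the lowest, 117180. NTF3 ran the other way, with its highest batch means, 7 and 6.49, in batches 1 and 6. How far the share of neurons, glia or other cells in a culture enters these levels was not tested.

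**Figure D5:**
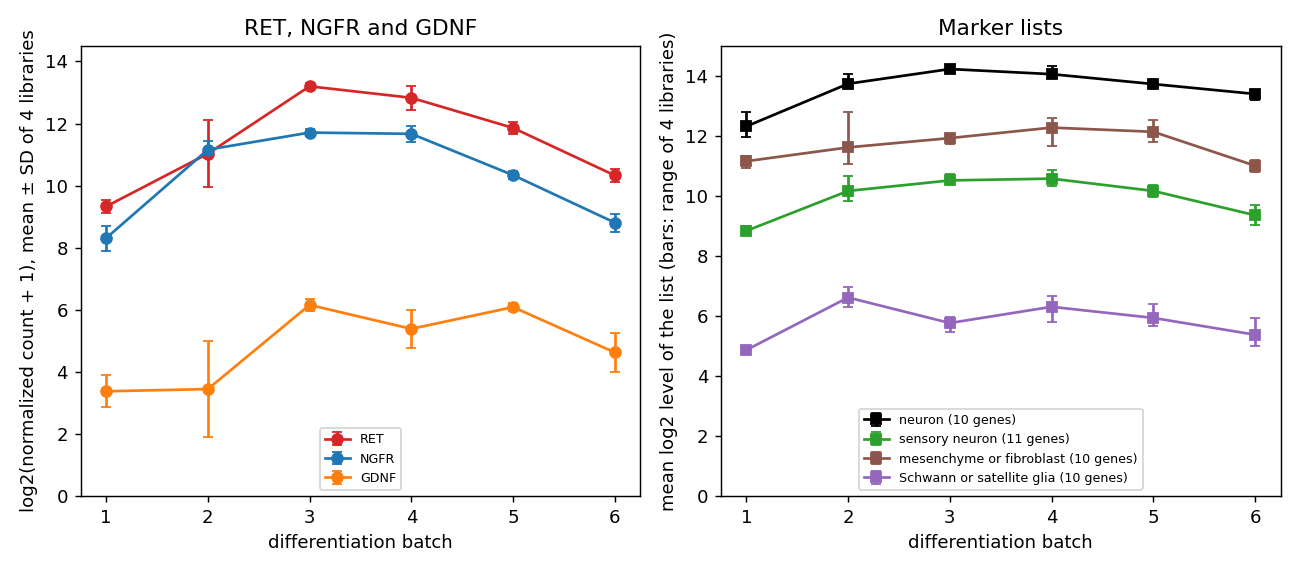
Left, mean ± SD over the 4 libraries of each batch of the log2 level of RET, NGFR and GDNF. Right, the mean log2 level of 4 marker lists, with bars for the range of the 4 libraries. RET and NGFR are lowest in batches 1 and 6, as are all 4 marker lists shown.

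Levels between genes were compared per kilobase of the MANE Select transcript, in vehicle libraries only. NTRK2 was highest, with a median of 1296.9 normalized counts per kilobase, followed by RET (780.0), NGFR (542.5), BDNF (257.1), GFRA1 (207.0), NTRK3 (105.9), ARTN (40.1), NTF3 (35.7) and GDNF (6.7). The receptors NTRK2, RET and NGFR thus stood above every ligand by their medians. Neighbors in this order differed beyond their spread, in 6 of 6 batches, for RET over NGFR (0.65 ± 0.27 on the log2 scale, SD, n = 6), GFRA1 over NTRK3 (1.00 ± 0.36), NTRK3 over ARTN (1.44 ± 0.75) and NTF3 over GDNF (2.15 ± 1.52). NTRK2 and RET (1.10 ± 1.40), NGFR and BDNF (0.28 ± 1.34), BDNF and GFRA1 (0.50 ± 0.70), and ARTN and NTF3 (0.05 ± 0.73) did not. The order depends on the length used, since with all annotated exons joined NTRK2 had 339.1 per kilobase, below RET (488.7) and NGFR (446.8).

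Genes with the most similar pattern were found by Pearson's r of the log2 level over 24 libraries after batch means were taken out, as a description. Libraries of a batch share their differentiation, and the vehicle library of batch 2 is among the points. For NTF3 they were ALPK2, an alpha kinase (r = 0.890), CISH, an inhibitor of cytokine signaling (0.887), and ALOX15, a lipoxygenase (0.853). For RET they were DDC, the decarboxylase that makes dopamine (0.977), GAD1, which makes GABA (0.975), and SEMA4F (0.971). For BDNF they were ST3GAL5 (0.966), VAT1L (0.961) and PPARGC1A (0.959), and for NTRK2 TMEM47 (0.935), TLE4 (0.930) and RMI1 (0.920). The highest values were 0.901 for NGFR with CPLX2, 0.887 for NTRK3 with CCDC146, 0.879 for GFRA1 with PTPRT, 0.844 for GDNF with INAFM1 and 0.774 for ARTN with TRIOBP.

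The wider pathway was read from 55 other genes, of which none was called in any comparison by edgeR or DESeq2. Of all genes, edgeR called 0.0209%, 0.251%, 0% and 0.895% in the 4 comparisons (TGF-β, IL-4 + IL-13, IL-6, direct). DESeq2 called 0.408%, 0.592%, 0.429% and 1.55% of them, so having no call does not set a list of this size apart. Of 12 other receptors, 11 passed the filter on low counts, all but GFRAL with its 0 to 3 counts per library. Among them SORCS2, a sorting receptor that partners p75 for proneurotrophins, was higher under TGF-β than in the IL-4 + IL-13 group, by 0.45 in log2 fold change (standard error 0.07, adjusted p = 0.00608, edgeR), which passes on p but not on fold. On p alone, 1.83% of all genes passed in that comparison. Its difference from vehicle with TGF-β was 0.35 (adjusted p = 0.137 with edgeR and 0.00244 with DESeq2), and 0.40 without the vehicle libraries of batches 2 and 4 (adjusted p = 0.0572, edgeR). Among 6 genes listed for the processing of neurotrophin precursors, PCSK6 was lower under TGF-β than in the IL-4 + IL-13 group. Its log2 fold change was -0.64 (adjusted p = 0.0219, edgeR). PCSK6 differed from vehicle by -0.24 with TGF-β and by 0.39 with IL-4 + IL-13 (adjusted p = 0.9 and 0.415, edgeR). Without the vehicle libraries of batches 2 and 4 these values were -0.20 and 0.43. PLAT, the tissue plasminogen activator, differed under IL-4 + IL-13 from vehicle by -0.74 (standard error 0.18, adjusted p = 0.166, edgeR, and 0.0114 with DESeq2). FURIN, which cleaves neurotrophin precursors, differed by -0.44 there (adjusted p = 0.63, edgeR). PLAT was at -0.63 (adjusted p = 0.0626, edgeR) and FURIN at -0.40 without the vehicle libraries of batches 2 and 4.

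Of 14 genes that respond to receptor tyrosine kinase signaling, none was called against vehicle. With TGF-β 10 of the 14 had a negative log2 fold change (median -0.06), with IL-4 + IL-13 13 (median -0.19) and with IL-6 12 (median -0.23), where 50.5%, 50.1% and 52.7% of all genes tested were negative. With both doubted vehicle libraries (batches 2 and 4) left out, the counts were 6, 12 and 12 and the medians 0.03, -0.13 and -0.10, beside 46.8%, 47.3% and 49.4% of all genes. VGF, a secreted neuropeptide precursor induced by neurotrophins, differed by -0.65 in both the IL-4 + IL-13 and the IL-6 group (adjusted p = 0.768 and 0.85, edgeR). Its vehicle library of batch 2 held 29350.62 normalized counts, against 4775.09 with IL-4 + IL-13 and 3512.79 with IL-6, and without the vehicle libraries of batches 2 and 4 the VGF differences were -0.31 and -0.22. JUNB, an immediate early transcription factor, was higher under TGF-β than in the IL-4 + IL-13 group, by 0.94 in log2 fold change (standard error 0.21, adjusted p = 0.0344, edgeR). SPRY2, a feedback inhibitor of receptor tyrosine kinase signaling, went the opposite way in that comparison, by -0.34 (standard error 0.07, adjusted p = 0.0241, edgeR). Both pass on p but not on fold. Among 18 adaptors, the largest differences were -0.45 with IL-4 + IL-13 and -0.53 with IL-6, both for SHC4, and -0.15 with TGF-β, for DOK5. None passed the test. With the vehicle libraries of batches 2 and 4 left out these were -0.28 and -0.31 for SHC4, whose vehicle library of batch 2 stood at 1187.3 normalized counts, and -0.02 for DOK5. Among 5 other ligands, NTF4, which also binds the receptor encoded by NTRK2, differed by -0.42 with TGF-β (adjusted p = 0.959, edgeR) and GDF15, a stress-induced ligand that signals through RET, by -0.36 (adjusted p = 0.942, edgeR). Without those libraries the values were -0.31 for NTF4 and -0.33 for GDF15. The medians of the lists ran from -0.30 to 0.18 over the 4 comparisons.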

How the data were processed

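Raw read counts per gene were deposited by the authors for 24 libraries, with no normalization. Per the labels, reads were trimmed with Trimmomatic 0.30 and aligned to GRCh38.p14. The aligner, counting tool and strand setting are not given in the sources used here. Of 36468 entries, 13161 are unnamed NewGene loci, and they stayed in every fit.

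edgeR 4.0.16 (R 4.3.3; TMM, robust quasi-likelihood test, batch and treatment as terms, Benjamini-Hochberg adjustment over all genes) was fitted to genes whose counts summed to 10 or more. The vehicle, IL-4 + IL-13 and TGF-β groups shared a fit, and IL-6 was tested in a fit of all 24 libraries. Calls required an adjusted p below 0.05 together with a log2 fold change above 1 in size. DESeq2 1.42.0 was the alternative tool. Both tools were tested on simulated data first. False calls by edgeR numbered 6, 7, 2 and 4 there (TGF-β, IL-4 + IL-13, IL-6, direct). Those by DESeq2 numbered 26, 35, 104 and 16, in the same order. Of 100 genes given a log2 fold of 1.5, edgeR recovered 87, 92, 87 and 89, and DESeq2 94, 95, 92 and 94. Changes were simulated only in genes with a mean count of at least 50. GDNF and ARTN, with 927 and 1116 counts summed over the 24 libraries, lie below that mean. A log2 fold change as small as that of NTF3, 1.14, was not simulated.

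The batch label pairs the libraries. After centring, 36 pairs of libraries from the same batch had a median correlation of 0.564 (lowest -0.047), against -0.161 over 240 other pairs, and the block was kept, as in the study's own model.

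Coordinates and upstream sequences come from RefSeq for GRCh38.p14 and transcript lengths from the MANE Select transcripts. The 9 genes and the gene lists were chosen with earlier results of these data known. All 9 are named in every comparison. From the other lists were named the genes called and those with the 2 largest absolute log2 fold changes in each list and comparison. The latter needed a mean count of at least 50, and a selection is printed. SPRY2 is printed outside this rule. It ranked 4 by size in its list in the direct comparison, where it passed on adjusted p. Similar genes were the 3 with the highest r among named genes with 1 entry and a mean count of at least 100.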

Additional observations from a re-analysis of the deposited data

Results flagged for a closer look

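Each group of 6 libraries and each set of 6 within-batch ratios to vehicle was screened for a value far from the other 5. Dixon's criterion was used on 63 sets in all, and 11 were picked out. Ratios of TGF-β to IL-4 + IL-13 were not screened, among them that of NTF3 in batch 2 (-0.02, others -1.11 to -0.77). Chance alone picks about 1 in 20 sets. The sets are not independent, since the same vehicle library enters several.

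Of the 11 values, 8 involve batch 2. In the vehicle library of batch 2, BDNF had a log2 level of 11.39, where the other 5 batches had 9.71 to 10.33. The BDNF log2 ratio to vehicle in batch 2 was -1.68 with IL-4 + IL-13 (others 0.06 to 0.81) and -1.91 with IL-6 (others -0.34 to 0.53). The NTRK2 ratio in batch 2 was 0.90 with TGF-β, 0.93 with IL-4 + IL-13 and 0.96 with IL-6, where no other batch exceeded 0.23. The RET ratio with IL-6 was -2.39 (others -0.46 to 0.43). The GDNF ratio with IL-4 + IL-13 was -3.47 (others -0.39 to 0.77), with only 1.9 normalized counts in the treated library. In the same batch the cycling cell markers had a mean log2 level of 8.03 in vehicle and 10.37 to 10.85 in the treated libraries, and the mesenchyme markers 12.79 against 11.08 to 11.43. Their part in these values was not tested.

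The other 3 values come from other batches. NTRK3 had a ratio of -1.26 with TGF-β in batch 4 (others -0.21 to 0.35), the other batch whose vehicle library stood apart. GFRA1 had a ratio of 0.66 with IL-4 + IL-13 in batch 1 (others -0.30 to -0.18). NTRK2 had a log2 level of 13.01 with IL-4 + IL-13 in batch 6 (others 13.61 to 13.94).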

How the results depend on the processing

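The count of called genes among the 9 stayed at 0 with TGF-β, with IL-6 and in the direct comparison under every alternative run. With IL-4 + IL-13 it was 1 (NTF3) with DESeq2, with DESeq2 size factors in edgeR, with either other filter on low counts, with 1 entry per symbol, with no threshold on the fold, with all 24 libraries and without the vehicle libraries of batches 2 and 4, an alternative chosen after seeing the data. It was 0 with only the compared groups in the fit, and between 0 and 1 when a library or batch was left out. Without the replicate block it was 0, with a difference of 1.15 for NTF3 and an adjusted p of 1 (edgeR), and RET with TGF-β (0.03), NTRK3 with IL-6 (-0.04) and NGFR with IL-6 (-0.03) changed sign. Without the vehicle libraries of batches 2 and 4, the sign changed for NTRK3 (0.04), RET (0.07) and GFRA1 (0.04) with TGF-β, BDNF (0.10) with IL-4 + IL-13 and NTRK2 (-0.12) with IL-6. The cause was not tested.

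Leaving out 1 batch or the vehicle library of batch 2 in turn changed the sign of some differences that had passed no test. With TGF-β the ranges were -0.58 to 0 for BDNF, -0.24 to 0 for NTRK2, -0.28 to 0.08 for NTRK3, -0.03 to 0.24 for NGFR, -0.35 to 0.25 for RET and -0.09 to 0.02 for GFRA1. With IL-4 + IL-13 they were -0.25 to 0.27 for BDNF, -0.56 to 0.11 for GDNF and -0.53 to 0.07 for RET, and 1.06 to 1.24 for NTF3. With IL-6 they were -0.53 to 0 for BDNF, -0.15 to 0.08 for NTRK2, -0.10 to 0.22 for NTRK3, -0.02 to 0.18 for NGFR and -0.03 to 0.16 for GFRA1. Other differences kept their sign but moved by over 1.5 times, among them NTF3 with TGF-β (0.18 to 0.46) and IL-6 (-0.35 to -0.07), GDNF with TGF-β (0.16 to 0.78) and IL-6 (-0.61 to -0.05), ARTN with TGF-β (-0.56 to -0.29), and RET with IL-6 (-0.70 to -0.07). In the direct comparison the sign changed for ARTN (-0.04 to 0.23), NGFR (-0.22 to 0.09) and GFRA1 (-0.02 to 0.19).

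Over all genes, DESeq2 called 117, 170, 126 and 444 in the 4 comparisons (TGF-β, IL-4 + IL-13, IL-6, direct), against 6, 72, 0 and 257 with edgeR. In the same order edgeR called 0, 9, 0 and 23 without the replicate block, 0, 25, 0 and 268 with only the compared groups, and, where all 24 libraries were an alternative, 42, 109 and 347 (TGF-β, IL-4 + IL-13, direct). With TGF-β it called 13 with 1 entry per symbol and 14 without the vehicle libraries of batches 2 and 4. Leaving out a batch gave 0 to 8 with TGF-β, 20 to 81 with IL-4 + IL-13, 0 with IL-6 and 84 to 315 in the direct comparison. NTF3, GDNF and ARTN rest on fewer than 250 counts per library. With TGF-β against vehicle the standard errors of NTF3 (0.19) and ARTN (0.22) were below those of BDNF (0.26) and RET (0.29), and that of GDNF was the largest of the 9 (0.41). Whether depth sets these errors was not tested.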
